A study of Mus musculus with 12 samples.

Results

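A group of 109 mouse genes whose symbol is still that of a RIKEN cDNA clone, and whose level differed strongly along the cycle of the seminiferous epithelium, was described in synchronized testes. The members were all genes with a symbol ending in Rik whose highest stage group mean reached a log2 intensity of at least 9 (an intensity of 512) and exceeded their lowest group mean by at least 1 (2-fold). They were 109 of the 741 Rik genes measured and of 19938 genes in all. The group means of all 12 arrays chose the members, so their levels, ranges and peak groups are a description, with no test. Whole testes of adult male mice of a mixed 129 and C57BL6 background were measured on 12 GeneChip Mouse Gene ST 1.0 arrays, with 2 samples per stage group. The 6 groups are named for their stages, beginning with XII-I and II-IV and going on through IV-VI and VII to VIII-IX and finally IX-XI. All animals had received WIN 18,446, which blocks retinoic acid synthesis, at 100 ug per g each day for 7 days from day 2 to day 8 after birth. An injection of 200 ug of retinoic acid followed on day 9, and 43 to 49 days of recovery preceded collection. The labels give no untreated group, and each sample holds all cell types of the testis. VII is a single stage, and the other groups span neighbouring stages. Whether partners in a group were separate animals is not stated, so the spread between them may be technical.

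A symbol ending in Rik is a placeholder for a transcript first seen as a cDNA clone of the RIKEN mouse collection, kept until the gene receives a name of its own. Many such clones were taken from testis, whose germ cells transcribe a large number of genes used nowhere else. In the cycle, spermatocytes divide around stage XII, round spermatids build the acrosome through the early and middle stages, and the spermatids elongate and condense their nuclei from about stage VIII onward, while the next generation enters meiosis.

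The label "uncharacterised" held in the RefSeq gene table of GRCm38.p6 so far as symbols go. Of the 109 members, 105 were matched there by Entrez ID, and all 105 still had a Rik symbol, while 4 had no entry. A protein was annotated for 68 members, 29 were lncRNA, 2 misc_RNA (an RNA of no defined class) and 6 transcribed pseudogenes. Of the 105, 14 had a synonym not of the RIKEN, AI, AW, AU or Gm type, including the codes bN189G18.7 (4933430I17Rik) and b2b3025Clo (1700093K21Rik). Among the 14, 4931428F04Rik is Kiaa0895l, now known as a peptidase that removes the terminal tyrosine of tubulin. 1700007K13Rik is Rbest47, now known as a protein of ciliary microtubules, and 1300017J02Rik is Ica, an inhibitor of carbonic anhydrase related to transferrin. A530064D06Rik (Trem4) and B430306N03Rik (Treml6) are named for the TREM family of receptors, and 4921507P07Rik (TISP74) for induction during spermiogenesis. The members lay on 19 chromosomes, with 7 on the X (6.67% of those matched, beside 4.93% of all Rik genes and 3.72% of all genes).

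Median array intensities lay between 296.9 and 309.1. The spermatocyte gene Ldhc was at 13.35 to 13.60 over the arrays and the protamine gene Prm2 at 13.50 to 13.81, beside an overall gene median of 8.45 (log2). Some markers of spermatogonia lay near or below that median, with Nanos2 at 6.46 to 6.85, Stra8 at 6.90 to 8.47 and Sohlh1 at 7.90 to 8.27. Gfra1 (8.14 to 8.40) and Sall4 (8.23 to 8.59) were also near it. Above it lay Ddx4 (12.20 to 12.73), Dmrtb1 (10.48 to 10.75), Id4 (9.10 to 10.42), Kit (8.64 to 9.19) and Zbtb16 (8.68 to 9.10). The samples of a group were not equally alike. Over the members, the median SD between partners was 0.423 in XII-I and 0.387 in II-IV, but 0.291 in VIII-IX, 0.218 in IX-XI, 0.202 in IV-VI and 0.189 in VII. In VII, sample 1 was the higher for 104 of 109 members. By the members' deviations from their own means, 6 of 12 arrays were nearest to their partner. Over all genes it was 3 of 12, but by log2 level without taking off each gene's mean, so the counts are not comparable. XII-I sample 2 was nearest to II-IV sample 2 (Pearson r = 0.959 across the members, which are not independent), and II-IV sample 1 to IV-VI sample 2 (0.973). The labelled partners of II-IV correlated at only 0.317. The highest group of a gene is therefore given below with the counts obtained when single arrays were left out.

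The members fell into unequal groups by the stage group with their highest mean. In whole testis, fewer cells of a type and less RNA per cell cannot be told apart. Of the 109, 30 were highest in IV-VI, 29 in VIII-IX, 18 in VII, 12 in IX-XI, 10 in II-IV and 10 in XII-I. Their median difference between the highest and lowest group mean was 1.545 log2 (2.92-fold), and 35 members ranged at least 4-fold. The widest were 4921511C20Rik at 9.95-fold, 4921509C19Rik at 9.28-fold and 4921504E06Rik at 9.23-fold. The 1376 other genes past the same thresholds had a median difference of 1.338 log2. Their peak group was IV-VI for 24.1%, with 24.0% in VIII-IX, 22.1% in XII-I, 11.6% in IX-XI, 10.7% in VII and 7.56% in II-IV. Among the members the shares were 27.5% in IV-VI, 26.6% in VIII-IX, 16.5% in VII, 11% in IX-XI, 9.17% in II-IV and 9.17% in XII-I. These differences in share were not tested, and they move with single arrays. Members highest in VII were 5 of 111 without IV-VI sample 2, and those highest in XII-I were 24 of 117 without XII-I sample 2. Over all Rik genes, with no threshold, 7.96% were highest in VII, beside 13.1% of genes with other symbols.

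**Figure D1:**
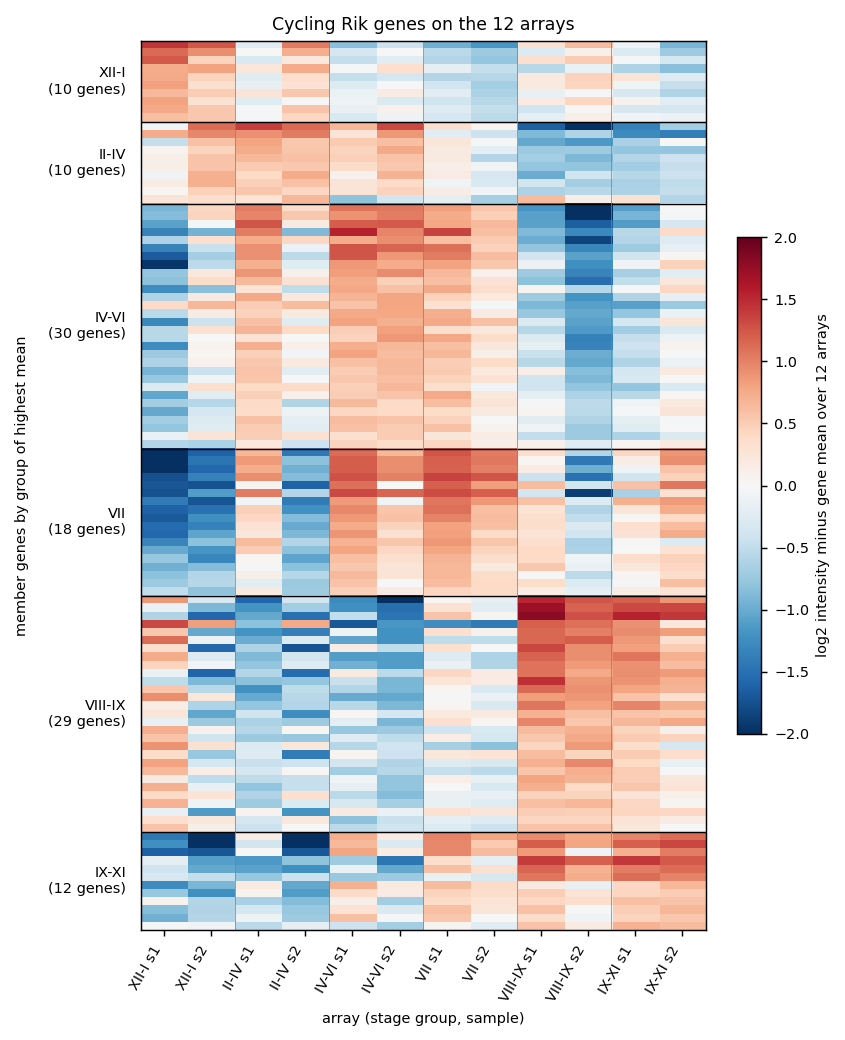
Log2 intensity minus each gene's mean over the 12 arrays (colour, with the scale ending at -2 and 2) for the 109 members in rows, sorted by peak group and range, on the 12 arrays in columns (s1 and s2 are samples 1 and 2). Members highest in VII are lowest in XII-I, and II-IV sample 1 and sample 2 differ for many rows.

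Rik genes as a whole were chosen by name alone, and for them the shares may be read beside those of other genes. Of 741 Rik genes, 109 (14.7%) met both thresholds, beside 7.17% of genes with other symbols and 7.45% of all genes. The share of bright genes was similar, as 43.9% of Rik genes and 45.8% of the other genes had a highest mean of at least 9. Among genes that bright, 33.5% of Rik genes ranged at least 2-fold, beside 15.6% of the others. In limma's moderated F test over the 6 groups, 196 Rik genes (26.5%) had an adjusted p under 0.05, beside 19.7% of genes with other symbols and 19.9% of all genes. Their count without single arrays ran from 70 (without IX-XI sample 1) to 219, and lay between 75 and 91 when IV-VI sample 1 or 2, VIII-IX sample 1 or 2, IX-XI sample 2 or VII sample 2 was left out. Without VII sample 1 it was 127. The share of all genes called is not given for the fits without single arrays, so Rik genes cannot be set beside other genes there. The median range of all Rik genes was 0.387 log2, beside 0.341 for all genes. Of the members, 84 passed that F test (77.1%, beside 19.9% of all genes and 81.1% of the other genes past the same thresholds), but the rule used the same group means and nothing is read from this count. It was 36 to 53 without either array of IV-VI, VII, VIII-IX or IX-XI.

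The thresholds passed through a continuous distribution. Just inside the range limit were 1300017J02Rik, at a difference of 1.00 log2, and 1700036A12Rik, at 1.02. Just outside were 4930451I11Rik and 9430015G10Rik, both at 0.99. Just inside the level limit were E430018J23Rik, with a highest mean of 9.01, and 1700031F05Rik, at 9.04. 4930513O06Rik fell just short at 8.96 although it ranged 3.09 log2, and so did 4930544M13Rik at 8.95. A further 35 Rik genes ranged at least 2-fold but were dimmer than the limit, 216 were bright enough but ranged less, and 381 met neither limit.

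Most members had a broad peak. In all 109 the samples of the highest and the lowest group did not overlap, as the choice of members largely fixes. The share over all genes is not given for this, and nothing is read from it. Both samples of the peak group lay above the 10 other arrays in 24 members (22.0%, beside 18.5% of all genes and 32.8% of the other genes past the thresholds). The count was higher with fewer arrays, at 37 without II-IV sample 1, 38 without XII-I sample 2, 39 without VIII-IX sample 2, 43 without IV-VI sample 1 and 46 without IV-VI sample 2. With an array fewer the criterion is in general easier to meet for any gene. The share of all genes is not given there, so nothing is read from the rise. The gap between the highest and the next group mean had a median of 0.16 log2. It was under 0.1 log2 in 34 members and at least 0.5 log2 in 4, namely 4932431P20Rik (0.86), 4933407E24Rik (0.67), D030056L22Rik (0.61) and 4930581F22Rik (0.59). A total of 51 members kept the same peak group whichever single array was left out. These were all 10 of XII-I, 3 of II-IV, 16 of IV-VI, 3 of VII, 15 of VIII-IX and 4 of IX-XI.

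**Figure D2:**
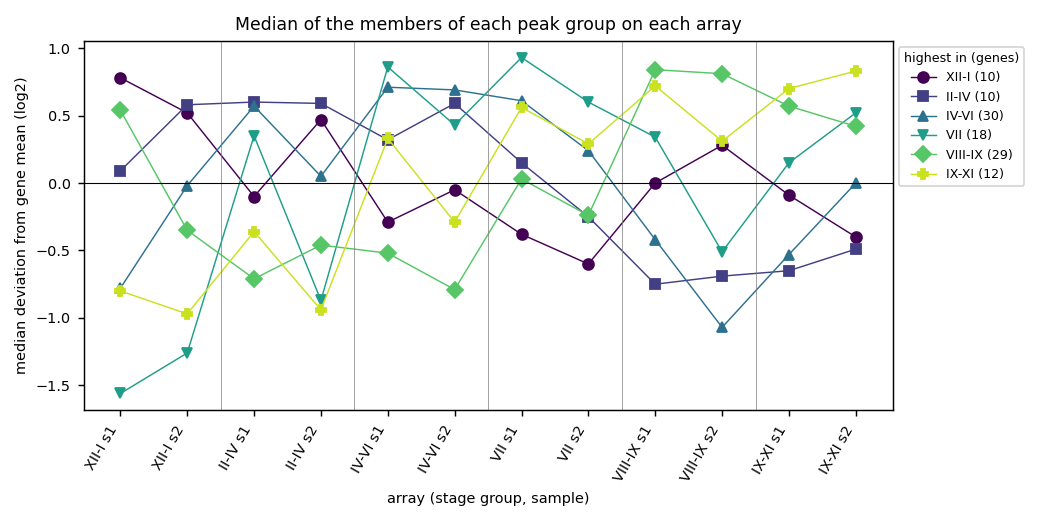
Median deviation from the gene's own mean (log2, vertical axis) on each of the 12 arrays (horizontal axis) for the members of each peak group, with the number of genes in brackets (lines join the arrays in labelled order). The 18 members highest in VII are at -1.56 and -1.26 on the XII-I arrays and at 0.35 and -0.87 on the II-IV arrays.

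Start regions from RefSeq (GRCm38.p6, from 250 bases before the annotated start to 50 after it) are shown for the widest member with an entry there in each of the 3 largest peak groups. Capitals mark matches to 5 motifs searched on both strands, namely the TATA box TATAAA, the cyclic AMP response element TGACGTCA, its shorter form TGACG (which lies within it), the MYB motif TAACGG and the core motif of RFX factors GTTGCC.
1700029J07Rik: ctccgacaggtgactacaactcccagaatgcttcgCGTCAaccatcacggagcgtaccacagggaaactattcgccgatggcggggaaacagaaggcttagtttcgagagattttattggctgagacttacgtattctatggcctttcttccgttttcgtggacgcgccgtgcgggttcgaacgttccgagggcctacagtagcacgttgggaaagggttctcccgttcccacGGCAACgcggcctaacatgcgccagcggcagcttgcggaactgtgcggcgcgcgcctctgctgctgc
1700016C15Rik: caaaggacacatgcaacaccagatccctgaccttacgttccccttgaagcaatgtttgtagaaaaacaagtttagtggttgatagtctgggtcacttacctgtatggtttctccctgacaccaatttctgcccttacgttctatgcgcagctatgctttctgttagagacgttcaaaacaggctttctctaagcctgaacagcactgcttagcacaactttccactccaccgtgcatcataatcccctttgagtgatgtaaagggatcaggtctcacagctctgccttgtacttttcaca
4933404G15Rik: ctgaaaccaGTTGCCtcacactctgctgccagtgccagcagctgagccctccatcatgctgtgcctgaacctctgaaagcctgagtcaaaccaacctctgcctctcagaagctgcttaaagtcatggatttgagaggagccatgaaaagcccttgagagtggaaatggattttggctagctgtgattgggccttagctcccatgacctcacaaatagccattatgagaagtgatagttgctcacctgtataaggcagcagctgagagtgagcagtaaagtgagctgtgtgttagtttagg
The first, of 1700029J07Rik (chr8:45975203-45975502, minus strand), highest in IV-VI, held 31 CpG dinucleotides, TGACG on the reverse strand at position -215 and GTTGCC on the reverse strand at -17. The second, of 1700016C15Rik (chr1:177729564-177729863, plus strand), highest in VIII-IX, held 5 CpG dinucleotides and none of the 5 motifs. The third, of 4933404G15Rik (chr16:16718072-16718371, minus strand), highest in VII, held 0 CpG dinucleotides and GTTGCC at -241. Of the members, 76 had a start region in the table. Their median was 4.5 CpG dinucleotides, beside 15 over the 15562 measured genes with a region and 7 over all 27025 regions. GTTGCC occurred in 18 of the 76 (23.7%, beside 12.3% of measured genes and 12.7% of all regions), TAACGG in 6 (7.89%, beside 2.97% and 2.68%), TGACG in 16 (21.1%, beside 25.4% and 21.0%), TGACGTCA in 2 (2.63%, beside 2.50% and 1.88%) and TATAAA in 4 (5.26%, beside 12.1% and 14.2%). By peak group, GTTGCC was found in 8 of 23 regions for IV-VI, 4 of 12 for VII, 4 of 20 for VIII-IX, 1 of 6 for II-IV, 1 of 8 for IX-XI and 0 of 7 for XII-I. These matches are letters in a window, not sites.

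The 10 members highest in XII-I were mostly transcripts without a protein. Of them 8 were annotated as lncRNA or misc_RNA, including the 5 widest. 4932431P20Rik (probe set 10551752), a misc_RNA, was at 10.74 and 10.55 in XII-I, 9.07 and 10.34 in II-IV, 8.48 and 8.90 in IV-VI, 8.34 and 8.14 in VII, 9.62 and 9.94 in VIII-IX and 9.21 and 8.39 in IX-XI. Both XII-I samples lay above all others, and the next highest single array was II-IV sample 2. It averaged 10.65 ± 0.14 in XII-I and 8.24 ± 0.14 in VII (SD, n = 2), a 5.30-fold difference. The lncRNA 4933407E24Rik (10507903) was at 9.96 and 9.75 in XII-I, 8.81 and 9.55 in II-IV, 8.46 and 8.82 in IV-VI, 8.29 and 8.09 in VII, 8.54 and 8.92 in VIII-IX and 8.54 and 8.11 in IX-XI. Its XII-I samples were also above all others, and it was 3.18-fold higher there than in VII. The lncRNA 4930589L23Rik (10492668) was at 9.997 and 9.20 in XII-I, 8.45 and 8.98 in II-IV, 8.29 and 8.55 in IV-VI, 8.18 and 7.998 in VII, 9.10 and 9.27 in VIII-IX and 8.74 and 8.41 in IX-XI. Here XII-I sample 2 overlapped the VIII-IX samples, and the fold between XII-I and VII was 2.85. The lncRNA 4930483J18Rik averaged 10.95 ± 0.04 in XII-I and 9.45 ± 0.16 in IX-XI, 2.83-fold apart. The lncRNA 4933427E11Rik, the brightest of the group, averaged 11.50 ± 0.21 in XII-I and 10.32 ± 0.01 in VII, 2.26-fold apart. The other 5 members, 4930412M03Rik, 1700055D18Rik, 4930564D02Rik, 1700036A12Rik and 1300017J02Rik, ranged 2.00 to 2.14-fold. Of the 10 members, 8 were lowest in VII and 2 in IX-XI, and VIII-IX was the next highest group in 5 and II-IV in the other 5. The count of 10 became 24 without XII-I sample 2 and 6 without VII sample 2.

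The division of classes differed by peak group. Of members with an entry, those without a protein (lncRNA, misc_RNA or pseudogene) were 8 of 10 in XII-I (80%), 1 of 9 in II-IV (11.1%), 10 of 29 in IV-VI (34.5%), 5 of 17 in VII (29.4%), 10 of 29 in VIII-IX (34.5%) and 3 of 11 in IX-XI (27.3%). Among the 216 Rik genes bright enough but outside the range limit, 34.9% had no protein, and 36.7% of those highest in XII-I. The XII-I members without a protein were 6 of 10 without XII-I sample 1, 13 of 23 (56.5%) without XII-I sample 2 and 6 of 6 without VII sample 2. The counts are small and the difference was not tested.

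**Figure D3:**
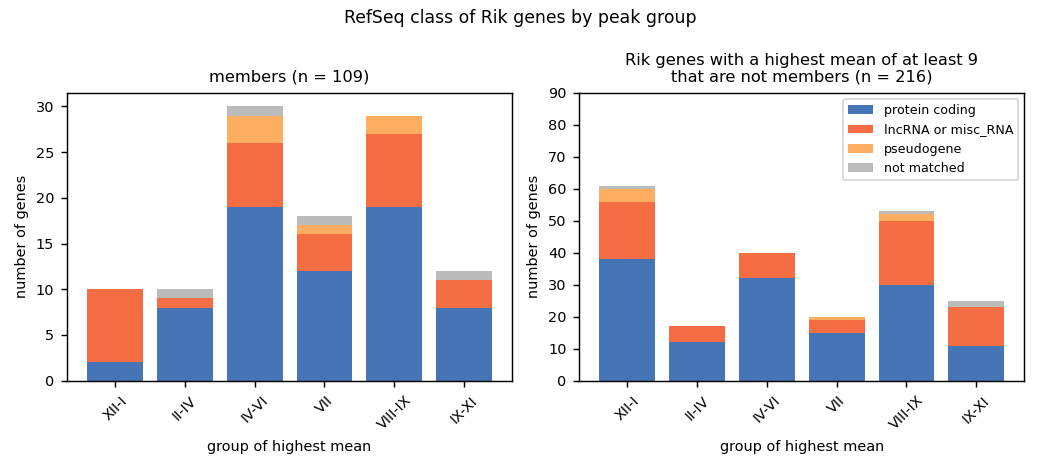
Number of genes (vertical axis) by RefSeq class (colours) and group of highest mean (horizontal axis) for the 109 members (left) and for the 216 Rik genes with a highest mean of at least 9 outside the range limit (right, with its own scale). In XII-I 8 of the 10 members are lncRNA or misc_RNA.

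Members highest in II-IV were mostly lowest in the late groups, with 6 of 10 lowest in VIII-IX and 3 in IX-XI. 4921504E06Rik (10480360), a coding gene, was at 10.05 and 11.21 in XII-I, 11.48 and 11.23 in II-IV, 10.76 and 11.41 in IV-VI, 10.42 and 10.14 in VII, 8.46 and 7.84 in VIII-IX and 8.74 and 9.42 in IX-XI. IV-VI sample 2 lay between the II-IV samples, XII-I sample 2 lay just below them, and all 4 arrays of VIII-IX and IX-XI were the lowest. It averaged 11.35 ± 0.17 in II-IV and 8.15 ± 0.44 in VIII-IX (SD, n = 2), a 9.23-fold difference. The coding gene 1700022I11Rik (10504230) was at 10.002 and 10.22 in XII-I, 10.17 and 10.30 in II-IV, 9.52 and 10.13 in IV-VI, 9.04 and 8.84 in VII, 8.37 and 8.66 in VIII-IX and 7.99 and 7.88 in IX-XI. Its XII-I and II-IV samples overlapped, and it was 4.91-fold lower in IX-XI. X-linked 4933428M09Rik (10601978) was at 8.40 and 9.46 in XII-I, 9.67 and 9.42 in II-IV, 9.40 and 9.47 in IV-VI, 9.11 and 8.86 in VII, 7.85 and 7.73 in VIII-IX and 8.23 and 8.88 in IX-XI. Its XII-I samples lay over 1 log2 apart, and its II-IV mean was 3.37-fold above that of VIII-IX. 4933430I17Rik averaged 10.41 ± 0.12 in II-IV and 8.99 ± 0.01 in IX-XI, 2.68-fold apart. The lncRNA 4932415M13Rik averaged 9.76 ± 0.05 in II-IV and 8.35 ± 0.16 in VIII-IX, 2.65-fold apart. It was the only member of the 10 with both II-IV samples above all other arrays, though by a small margin. The other 5, 6820408C15Rik, 4930444G20Rik, 1110059E24Rik, 4930550C14Rik and 1700031F10Rik, ranged 2.07 to 2.46-fold. IV-VI was the next highest group in 7 of the 10, XII-I in 2 and VIII-IX in 1, and the gap was under 0.1 log2 in 5. The count of 10 became 18 without II-IV sample 2 and 5 without IV-VI sample 1.

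The 30 members highest in IV-VI were lowest in VIII-IX (18) or XII-I (12). 1700029J07Rik (10578504), a coding gene whose start region is printed above, was at 9.10 and 10.43 in XII-I, 11.04 and 10.38 in II-IV, 11.09 and 11.07 in IV-VI, 10.86 and 10.57 in VII, 8.84 and 7.88 in VIII-IX and 8.91 and 10.01 in IX-XI. Both IV-VI samples were above all others, by a small margin over II-IV sample 1. It averaged 11.08 ± 0.02 in IV-VI and 8.36 ± 0.68 in VIII-IX (SD, n = 2), a 6.60-fold difference. X-linked 4932411N23Rik (10606583) was at 7.79 and 9.09 in XII-I, 9.63 and 9.20 in II-IV, 9.56 and 9.68 in IV-VI, 9.40 and 9.13 in VII, 7.56 and 6.45 in VIII-IX and 7.72 and 8.60 in IX-XI. It stayed near its peak from II-IV to VII, and its VIII-IX samples, over 1 log2 apart, were the lowest 2 of the 12 arrays. The fold between IV-VI and VIII-IX was 6.10. The transcribed pseudogene 4933411G06Rik (10369038) was at 7.77 and 8.79 in XII-I, 10.10 and 9.02 in II-IV, 10.04 and 10.06 in IV-VI, 9.61 and 9.48 in VII, 7.76 and 7.18 in VIII-IX and 7.72 and 8.50 in IX-XI. Only II-IV sample 1 reached its IV-VI samples, and the fold was 5.98 against VIII-IX. The misc_RNA 4930432E11Rik averaged 10.44 ± 0.40 in IV-VI and 8.03 ± 0.28 in XII-I, 5.31-fold apart. The coding gene 4930579F01Rik averaged 12.55 ± 0.13 in IV-VI and 10.29 ± 0.61 in VIII-IX, 4.79-fold apart. Of the other 25, 1700010H22Rik, 4930562F07Rik and 4933405O20Rik ranged 4.09 to 4.78-fold. The 4.09-fold of 4933405O20Rik was 2.50 with XII-I sample 1 left out and 6.69 with sample 2 left out. Another 7, 4930463O16Rik, 1700024J04Rik, 1700029I15Rik, 4930562C15Rik, A930018P22Rik, 1700123K08Rik and 1700067P10Rik, ranged 3.06 to 3.77-fold. The remaining 15, 1700007K13Rik, 1700073E17Rik, 4930519F16Rik, A930024E05Rik, 1700020L24Rik, 2900092C05Rik, 1700001L19Rik, 4933432I09Rik, 4930474N05Rik, 4930563M21Rik, 1700049L16Rik, 6430548M08Rik, 4930522H14Rik, 1700034J05Rik and 4930578I06Rik, ranged 2.02 to 2.84-fold. 1700020L24Rik was the brightest, at 12.69 ± 0.05 in IV-VI, with both samples above all others. The next highest group was VII in 19 members and II-IV in 11. The count of 30 became 46 without IV-VI sample 2 and 23 without VII sample 2, and it was below that of VIII-IX without XII-I sample 1 (27 and 31), II-IV sample 2 (24 and 29) or VIII-IX sample 2 (27 and 38).

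Members highest in VII had the widest median range, 2.204 log2 (4.61-fold), and all 18 were lowest in XII-I. 4921511C20Rik (10601607), an X-linked transcribed pseudogene whose probes may also read related copies, was at 7.32 and 8.45 in XII-I, 10.73 and 8.63 in II-IV, 11.18 and 10.72 in IV-VI, 11.32 and 11.08 in VII, 10.41 and 9.48 in VIII-IX and 10.47 and 10.94 in IX-XI. XII-I and II-IV sample 2 were the lowest, and VII and IV-VI samples overlapped. It averaged 11.20 ± 0.17 in VII and 7.88 ± 0.80 in XII-I (SD, n = 2), a 9.95-fold difference. The coding gene 1700001P01Rik (10390498) was at 6.87 and 8.08 in XII-I, 10.39 and 8.71 in II-IV, 10.75 and 10.46 in IV-VI, 10.74 and 10.59 in VII, 9.57 and 8.11 in VIII-IX and 9.68 and 10.47 in IX-XI. The level overlapped between IV-VI and VII and dipped in VIII-IX, whose samples were far apart. The fold between VII and XII-I was 9.13, but 6.00 with XII-I sample 1 left out and 13.88 with sample 2 left out. The lncRNA 4933404G15Rik (10438042) was at 7.94 and 8.56 in XII-I, 10.87 and 9.17 in II-IV, 11.34 and 11.06 in IV-VI, 11.32 and 11.14 in VII, 10.29 and 9.16 in VIII-IX and 10.03 and 10.71 in IX-XI. It too overlapped between IV-VI and VII, and it was 7.86-fold above XII-I. 4930596D02Rik averaged 11.86 ± 0.07 in VII and 9.01 ± 0.29 in XII-I, 7.25-fold apart, and 1700122O11Rik averaged 9.81 ± 0.26 in VII and 7.06 ± 0.02 in XII-I, 6.72-fold apart. Of the other 13, 4930558K02Rik, 4930548H24Rik, 1810024B03Rik, 1700113H08Rik and 1700014D04Rik ranged 4.42 to 6.43-fold and 1700013D24Rik, 4930568D16Rik, 4930548G14Rik, 1700001K23Rik, 4930404N11Rik, 4931429L15Rik, 1700031F05Rik and 4933417A18Rik ranged 2.08 to 3.78-fold. 1700014D04Rik was the brightest, at 12.09 ± 0.14. In 16 of the 18 the next highest group was IV-VI, and in 13 the gap was under 0.1 log2, so that VII and IV-VI can hardly be told apart as the peak. The count of 18 became 5 without IV-VI sample 2, 6 without VII sample 1 and 33 without VII sample 2.

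**Figure D4:**
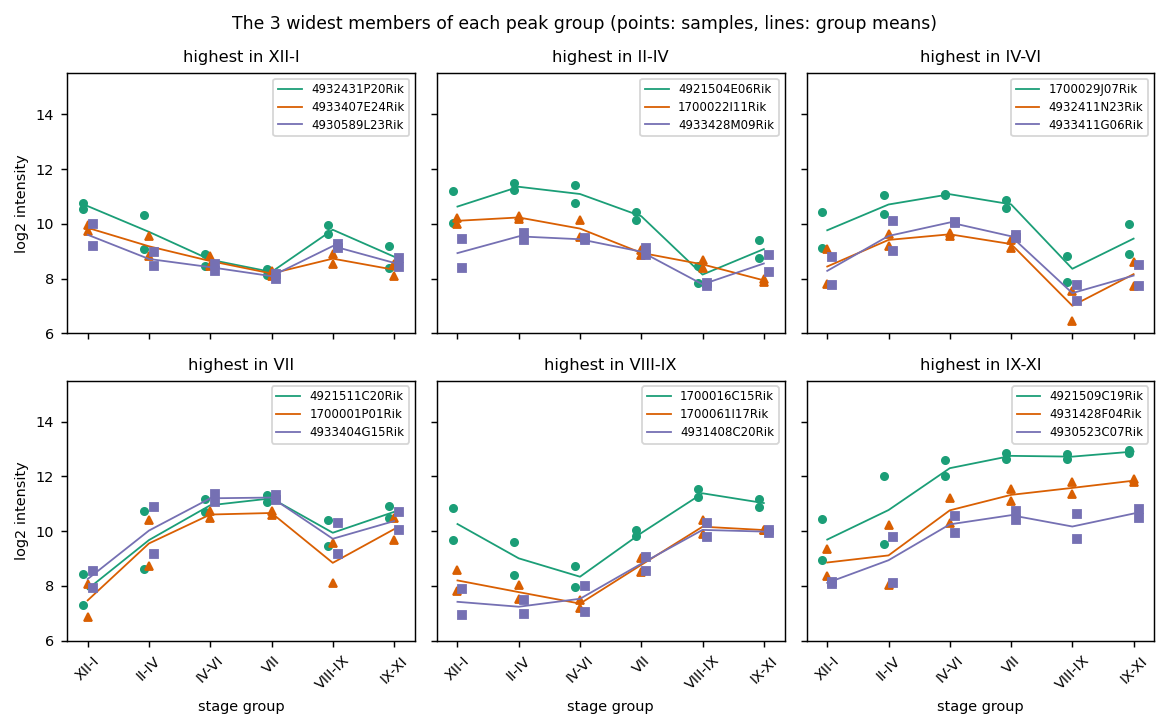
Log2 intensity (vertical axis) of the 3 widest members of each peak group (panels) in the 6 stage groups (horizontal axis). Points are the 2 samples, lines join group means. The 3 members highest in XII-I have a second, lower peak of the means in VIII-IX, and II-IV samples lie far apart for members highest in VII.

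The 29 members highest in VIII-IX were mostly lowest in the earlier groups, with their lowest mean in IV-VI in 15, II-IV in 12, VII in 1 and XII-I in 1. 1700016C15Rik (10352097), a coding gene, was at 10.85 and 9.67 in XII-I, 8.41 and 9.61 in II-IV, 8.72 and 7.95 in IV-VI, 10.03 and 9.83 in VII, 11.52 and 11.24 in VIII-IX and 11.19 and 10.87 in IX-XI. Both VIII-IX samples lay above all others, and IX-XI was next. It averaged 11.38 ± 0.20 in VIII-IX and 8.34 ± 0.54 in IV-VI (SD, n = 2), an 8.26-fold difference. The lncRNA 1700061I17Rik (10501744) was at 8.59 and 7.82 in XII-I, 7.52 and 8.02 in II-IV, 7.50 and 7.21 in IV-VI, 9.03 and 8.51 in VII, 10.42 and 9.90 in VIII-IX and 10.03 and 10.05 in IX-XI. VIII-IX and IX-XI overlapped, all 4 of their arrays were above the other 8, and the fold was 7.01 against IV-VI. The coding gene 4931408C20Rik (10353669) was at 7.91 and 6.94 in XII-I, 7.49 and 6.99 in II-IV, 8.01 and 7.05 in IV-VI, 9.07 and 8.55 in VII, 10.31 and 9.79 in VIII-IX and 10.05 and 9.92 in IX-XI. Its 4 late arrays were again above the other 8, VII was next, and VIII-IX stood 6.99-fold above II-IV. 1700008P02Rik differed from these in staying high in XII-I. It averaged 9.90 ± 0.07 in VIII-IX and 7.32 ± 0.37 in IV-VI, 5.99-fold apart, and stood at 9.83 ± 0.35 in XII-I. 4930407I10Rik averaged 12.18 ± 0.10 in VIII-IX and 9.82 ± 0.12 in II-IV, 5.12-fold apart. Of the other 24, 4930581F22Rik, 4930567H17Rik, 4933402N03Rik and 4921517D22Rik ranged 4.01 to 4.97-fold. A further 12, 1700056E22Rik, 2200002J24Rik, 4930448K20Rik, A530064D06Rik, 1700071K01Rik, 4930465K10Rik, 1190005I06Rik, 4933414I15Rik, 4930433N12Rik, 4931406B18Rik, 4930520O04Rik and D030056L22Rik, ranged 2.50 to 3.95-fold, and 8, 4921524L21Rik, 4933400A11Rik, 4930528A17Rik, 1700034E13Rik, 4933412E24Rik, 1700006A11Rik, 4921507P07Rik and B430306N03Rik, ranged 2.03 to 2.41-fold. 4921507P07Rik was the brightest member of all, at 13.14 ± 0.00. The next highest group was IX-XI in 19 and XII-I in 10. XII-I sample 1 and sample 2 differed here, with median deviations from the gene's mean of 0.54 and -0.35 log2.

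Members highest in IX-XI differed in their low point. Of the 12, 7 were lowest in XII-I and 5 were lowest in II-IV or IV-VI. 4921509C19Rik (10488553), a coding gene, was at 10.43 and 8.96 in XII-I, 12.001 and 9.54 in II-IV, 12.59 and 12.02 in IV-VI, 12.85 and 12.65 in VII, 12.81 and 12.64 in VIII-IX and 12.84 and 12.98 in IX-XI. From VII on it stayed within a narrow band, while the II-IV samples were far apart. It averaged 12.91 ± 0.09 in IX-XI and 9.69 ± 1.04 in XII-I (SD, n = 2), a 9.28-fold difference. That fold was 15.42 with XII-I sample 1 left out and 5.58 with sample 2 left out. 4931428F04Rik (10581188), the tubulin peptidase gene, was at 9.35 and 8.36 in XII-I, 10.21 and 8.02 in II-IV, 11.22 and 10.30 in IV-VI, 11.54 and 11.11 in VII, 11.79 and 11.37 in VIII-IX and 11.78 and 11.91 in IX-XI. IX-XI and VIII-IX overlapped, and the fold against XII-I was 7.94. The coding gene 4930523C07Rik (10350977) was at 8.15 and 8.07 in XII-I, 9.78 and 8.10 in II-IV, 10.57 and 9.93 in IV-VI, 10.75 and 10.42 in VII, 10.63 and 9.71 in VIII-IX and 10.49 and 10.80 in IX-XI. II-IV sample 2 sat with XII-I, and the fold was 5.78. The lncRNA 4930412O13Rik averaged 11.37 ± 0.13 in IX-XI and 8.97 ± 0.52 in IV-VI, 5.28-fold apart, and the lncRNA 4930583K01Rik averaged 10.72 ± 0.07 in IX-XI and 8.51 ± 0.10 in II-IV, 4.62-fold apart. The other 7, 6430550D23Rik, 4930564C03Rik, 1700093K21Rik, 4933427I04Rik, E430018J23Rik, 4930555F03Rik and 9130023H24Rik, ranged 2.32 to 3.46-fold. The next highest group was VIII-IX in 6, VII in 5 and IV-VI in 1. The count of 12 became 7 without VIII-IX sample 2.

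Several members share their place in the genome with another transcript. Of the 105 members in RefSeq, 46 overlapped another annotated gene, and 27 overlapped a measured one, in 28 pairs of which 7 had the same peak group. The matching shares over all genes are not given, and nothing is read from these counts. Most partners in the 7 pairs ranged little. Rai1 and Dcps ranged 0.21 log2, Zfp764 0.24, Supt3 0.25, Nol3 0.31, Smg1 0.69 and Jrk 1.1. The labels do not say whether the labelled cDNA kept its strand, so signal from overlapping genes cannot be told apart with certainty. The 4 pairs given here were chosen after their values were seen. The coding gene 4930523C07Rik and the lncRNA 4930562F07Rik overlap on opposite strands of chromosome 1. Both were low in XII-I, at 8.11 ± 0.06 and 7.67 ± 0.70 (SD, n = 2). Both were high in VII, at 10.58 ± 0.23 and 9.67 ± 0.30, but in VIII-IX they stood at 10.17 ± 0.65 and 8.12 ± 0.49. The misc_RNA pair 4932431P20Rik and 4930432E11Rik lies on chromosome 7 with 1 annotated gene between. The first was at 10.65 ± 0.14 in XII-I and 8.69 ± 0.30 in IV-VI, and the second at 8.03 ± 0.28 and 10.44 ± 0.40, so the groups stood in opposite order. The lncRNA 4930412O13Rik overlaps Gata3, which encodes a zinc finger transcription factor, on the opposite strand. Gata3 was at 8.59 ± 0.13 in VIII-IX and 7.38 ± 0.15 in IV-VI, its highest and lowest means. In IX-XI the lncRNA was highest while Gata3 was at 8.09 ± 0.11, and in XII-I Gata3 was at 8.57 ± 0.55 while the lncRNA was at 9.41 ± 0.66. The lncRNA 4933427E11Rik overlaps Jrk, and both were highest in XII-I and lowest in VII. Jrk was at 9.23 ± 0.37 and 8.13 ± 0.11 there.

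**Figure D5:**
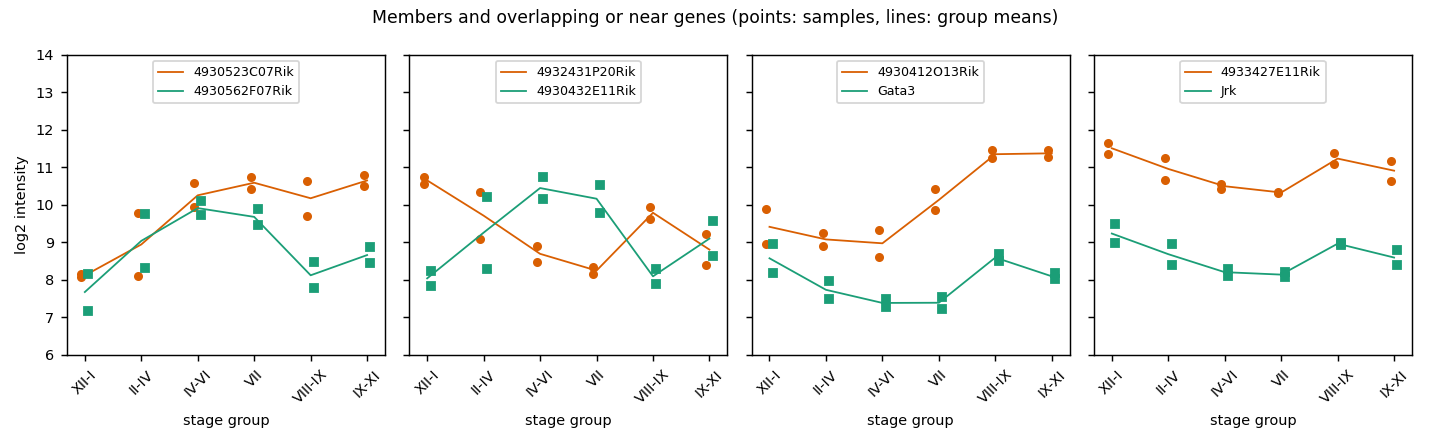
Log2 intensity (vertical axis) of 4 pairs of overlapping or near genes (a panel each) in the 6 stage groups (horizontal axis), with points for the 2 samples and lines through group means. 4932431P20Rik and 4930432E11Rik run in opposite order between XII-I and VII, whereas 4933427E11Rik and Jrk run alike.

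Only 2 members had a second probe set, which the rule did not use. For 4930407I10Rik the second set (10425651) was highest in IX-XI, at 11.73, and lowest in II-IV, at 9.48, a difference of 2.25 log2 beside 2.36 on the first. VIII-IX, the peak on the first set, was at 11.66. For 4930412O13Rik the second set (10469138) was dimmer, highest in IX-XI at 8.66 and lowest in XII-I at 7.05, a difference of 1.60 beside 2.40. Both sets of each gene were high on the 4 arrays of VIII-IX and IX-XI.

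Named genes with the most similar course were found for the widest member of each group, by Pearson r over the 12 samples among 8659 genes with a highest mean of at least 9, leaving out Rik, predicted (Gm), olfactory and vomeronasal receptor and microRNA genes. These likenesses are descriptions, the samples come in pairs of a stage, and many genes cycle alike. 4932431P20Rik was most like Guk1, a guanylate kinase (0.989), Rhcg, an ammonium transporter (0.986), and Pcbp3, an RNA binding protein (0.985). 4921504E06Rik was most like Zfp87, a zinc finger gene (0.993), Cldnd1, a claudin domain gene (0.991), and Nutm1 (0.990). 1700029J07Rik was most like Slc6a6, the taurine transporter (0.996), Adgb, which encodes androglobin (0.994), and Ptprj, a receptor tyrosine phosphatase (0.993). 4921511C20Rik was most like Spaca6, a sperm membrane protein needed for fusion with the egg (0.998), LOC102635990 (0.996) and Cldn34c4 (0.994). 1700016C15Rik was most like Proc, protein C (0.985), Thegl (0.983) and H2al3, an H2A variant (0.983). 4921509C19Rik was most like Cnbd2, which has a cyclic nucleotide binding domain (0.995), Scp2d1 (0.994) and Cyp51, an enzyme of cholesterol synthesis (0.989). For each of the 6 members, 5% of these genes reached at least 0.855 to 0.918.

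Marker genes of testis cells moved with some groups. Of 11 measured genes of the meiotic divisions, 8 were highest in XII-I and 3 in II-IV. Their summed level was 15.15 to 15.18 (log2) in XII-I and 14.27 to 14.38 in VII, where most XII-I members were lowest. In IX-XI it was as low, at 14.19 to 14.41. In II-IV and VIII-IX, each the next highest group of 5 of the 10 XII-I members, it was 14.85 to 15.14 and 14.35 to 14.63. Of 12 round spermatid genes, 7 were highest in IV-VI and 3 in VII. Their summed level was 14.58 to 14.92 in XII-I, 14.98 to 15.39 in VIII-IX, 15.70 to 15.85 in IV-VI and 15.70 to 15.87 in VII. In II-IV this level was 15.01 to 15.61, and in IX-XI 15.37 to 15.65. It was lowest in XII-I, as were all 18 members highest in VII, but 18 of the 30 members highest in IV-VI were lowest in VIII-IX. Of 12 elongating spermatid genes, 9 were highest in VIII-IX, with a summed level of 16.69 to 16.72 there and 16.30 to 16.38 in IV-VI. All 5 Leydig cell genes measured had their highest mean in VII. Their summed level was 13.90 to 14.38 there, 13.80 to 13.99 in XII-I and 13.03 to 13.78 in IX-XI, so 1 VII array overlapped XII-I. Of 6 macrophage genes 5 were highest in VII, with a sum of 12.11 on 1 VII array and 10.81 on the other. Of 9 Sertoli cell genes 5 were highest in VII. Their sum was 13.56 to 13.96 there, 13.53 to 13.60 in IV-VI and 13.40 to 13.44 in XII-I, so 1 VII array overlapped IV-VI. Of the 3 blood genes measured, 1 each was highest in XII-I, II-IV and IX-XI. They summed to 9.98 to 10.61 in XII-I, 10.40 to 10.69 in II-IV and 9.07 to 9.25 in VII. That sum moved mainly with Alas2, at 7.36 to 10.33 over the arrays, beside Slc4a1 at 7.32 to 7.89 and Epb42 at 6.69 to 7.05. The part of these cells in the members' levels was not tested.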

How the data were processed

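Intensity per probe set was computed by the authors with RMA, per the submitters' processing notes (version not given in the sources used here). RMA forces all arrays to 1 distribution after background correction, so a value is relative to the other transcripts of its array. Deposited intensities ran from 24.97 to 21760 on a linear scale and were transformed to log2. The platform annotation gave 1 symbol for 21789 of 28853 probe sets and several for 1621, and did not list 5443. Sets with several or none were left out, and for the 999 genes with more than 1 set the brightest was kept, leaving 19938 genes. Probe sets of genes with related copies can read several of them. Precision is limited by the number of arrays.

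All 12 arrays entered a fit of 6 group means in limma 3.58.1 in R 4.3.3 (lmFit, eBayes, 6 residual degrees of freedom), and the p-values of its moderated F test were adjusted (Benjamini-Hochberg) across the 19938 genes. The fit was tested on simulated data. Members, lists and tests were chosen with earlier results of these data known. For each peak group the 5 members with the widest range are described, the first 3 with every sample, along with the brightest member, the members nearest a threshold and those with a second probe set. RefSeq classes, synonyms and start regions (GRCm38.p6) were matched by Entrez ID. The alternatives were repeated quantile normalization, the mean of all probe sets, a filter on dim genes, the sample number as a block, array weights, other thresholds and each array left out. The marker lists covered spermatogonia, meiotic spermatocytes, meiotic divisions, round and elongating spermatids, Sertoli, Leydig, peritubular, endothelial, macrophage, epididymis and blood cells. Median deviations in any group of the lists not described in the results lay between -0.10 and 0.07 log2.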

Additional observations from a re-analysis of the deposited data

How the results depend on the processing

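Repeated quantile normalization gave 111 members, among them all 109, of which 108 kept their peak group, and the mean of all probe sets gave the same 109. A highest mean of at least 8 gave 136 members. A range of at least 1.5 log2 gave 58, with 4 highest in XII-I, 3 in II-IV, 16 in IV-VI, 14 in VII, 14 in VIII-IX and 7 in IX-XI. With single arrays left out, members numbered 108 to 117, and 88 of the 109 were members under all 12 leave-outs. Their peak group was less stable, with 6 to 24 highest in XII-I, 5 to 18 in II-IV, 23 to 46 in IV-VI, 5 to 33 in VII, 21 to 38 in VIII-IX and 7 to 18 in IX-XI. Members highest in XII-I without a protein numbered 6 to 13, a check chosen after seeing the data. Members whose peak samples lay above all others numbered 26 to 46 with 1 array fewer, which in general eases this criterion for any gene. The F test, limma's, called 36 to 88 members and 70 to 219 Rik genes with single arrays left out, and 25 members passed under all leave-outs. Each of these fits has fewer degrees of freedom than the fit of all arrays, by the same number. Why the counts differ among the leave-outs was not tested. With the dimmest 30% of genes left out the F test called 91 members, and with array weights 90. The rule chose the members on the same group means, and the share of all genes called in these fits is not given. Nothing is therefore read from any count of members past this test. Of 420 ranges (30 members described singly, 14 alternatives each) 1, that of 4930412O13Rik under the mean of its probe sets, moved by more than the samples' SD. Leaving out 1 of 2 samples moves a group mean by less than their SD. The 12 leave-outs could therefore hardly pass this limit, and nothing is read from the count. With the sample number as a replicate block 88 members and 206 Rik genes passed. What samples with the same number share is not stated. Their deviations correlated at -0.35 to 0.54 over 15 pairs of groups, and above 0.1 in 7 of these.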
